A study of Homo sapiens with 4 samples.

Results

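The FOS and JUN genes encode the subunits of activator protein 1 (AP-1), and 8 of them were followed here: FOS, FOSB, FOSL1 and FOSL2 of the FOS family, JUN, JUNB and JUND of the JUN family, and BATF3, a related basic leucine zipper (bZIP) factor. They were chosen by name, and all probes carrying a RefSeq accession of these genes were taken, which gave 8 probes, 1 for each gene, out of 19733 named genes on the array. RNA came from Hs746T, a cell line established from a gastric carcinoma, which carries an exon-skipping mutation and an amplification of MET, maintained in medium with fetal bovine serum. For siRNA transfection the methods of the study name Opti-MEM, which was replaced with complete medium before harvest. Of 4 single-colour Agilent arrays on 1 slide, the DMSO array was the solvent control for PHA665752, a small-molecule inhibitor of the MET kinase, and the sc siRNA array, from cells transfected with a scrambled siRNA, was the control for MET siRNA, a single sequence against MET. The dose and duration of PHA665752 on the array are not given in the sources used here. With 1 array for each condition there was no replicate error and no test. The values below compare arrays, and in RNA of a whole culture fewer expressing cells and less RNA per cell cannot be told apart.

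AP-1 is a dimer. JUN proteins pair with each other or with FOS proteins, while FOS proteins need a JUN partner, and the dimers bind the DNA element TGACTCA. Growth factor receptors such as MET signal through RAS and the kinases ERK1 and ERK2, which switch on FOS, FOSB, JUNB and other immediate early genes within minutes. FOSL1, which encodes FRA-1, builds up later under sustained ERK activity, and FRA-1 is known in carcinoma cells for its part in invasion and matrix degradation.

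The members did not move as a block. With PHA665752 the FOSL1 signal was 10.2-fold lower than in DMSO, while FOS and FOSB were 3.90-fold and 3.75-fold higher and FOSL2, JUNB and JUND between 2.03-fold and 2.33-fold higher. With MET siRNA the members that had a ratio in both pairs showed the same directions at a smaller size. At this scaling FOSL1 was 1.73-fold lower and the other 7 members between 1.09-fold and 1.53-fold higher than under sc siRNA. Of these 7, BATF3 had no PHA665752 ratio, and JUN, at 1.09-fold, was within the band of spot noise described further on. When arrays were scaled to the median of their probes well above background, JUN turned to a log2 ratio of -0.18 under MET siRNA. FOS, FOSB, FOSL2, JUNB and BATF3 then shrank to between 0.059 and 0.14, within that band, and JUND to 0.32. That scaling moved the median of all genes in this pair by -0.30, to -0.31. FOS, FOSB, JUN and JUNB were also lower in the sc siRNA control than in the DMSO control, so that for these genes the MET siRNA array lay below the DMSO array although above its own control. All ratios were taken after each array was scaled to its 75th percentile, and 2-fold, a log2 ratio of 1, served as the mark for a large difference.

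The promoters are shown because several members moved together under PHA665752, and because AP-1 and CREB/ATF factors are known to act on FOS and JUN genes themselves. RefSeq promoter sequences (GRCh38.p14) matched 6 of the 8 members, all but FOSL1 and BATF3. The 250 bases before the gene start were searched on both strands for TGACTCA, for TGACGTCA (the cAMP response element), for TGACATCA (the AP-1 element known from the JUN promoter), for TGACGT, which overlaps TGACGTCA, and for the CArG box of serum response factor. Of 27305 promoters, 7.42% held TGACGT, 1.77% TGACGTCA, 2.45% TGACATCA, 4.16% TGACTCA and 1.14% a CArG box. FOS, FOSB and FOSL2 each held TGACGT on the sense strand, starting 64, 60 and 66 bases before the gene start. JUN held TGACATCA 67 bases before its start, and JUND held TGACGTCA 200 bases before and TGACGT on the antisense strand 87 bases before. TGACTCA and the CArG box were not found in these windows of the 6 members, and none of the searched letters were found in that of JUNB. Sequence more than 250 bases before the gene start was not searched, so a motif lying there would be missed. The last 100 bases before the gene start follow, with the matches in capitals (for JUND as the reverse complement ACGTCA, its other match lying further upstream), for FOS (chr14:75278728-75278827, plus strand), FOSB (chr19:45467896-45467995, plus strand), FOSL2 (chr2:28392758-28392857, plus strand), JUN (chr1:58784048-58784147, minus strand) and JUND (chr19:18281623-18281722, minus strand). A match is a description of the sequence and not a binding site.
FOS: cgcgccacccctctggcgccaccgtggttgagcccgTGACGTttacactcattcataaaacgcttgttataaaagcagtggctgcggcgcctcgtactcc
FOSB: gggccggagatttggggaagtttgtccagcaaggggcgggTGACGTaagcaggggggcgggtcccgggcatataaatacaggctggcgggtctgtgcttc
FOSL2: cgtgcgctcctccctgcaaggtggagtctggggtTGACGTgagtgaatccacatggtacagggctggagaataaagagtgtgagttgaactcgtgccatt
JUN: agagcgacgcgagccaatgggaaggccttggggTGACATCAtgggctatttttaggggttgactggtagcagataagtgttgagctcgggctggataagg
JUND: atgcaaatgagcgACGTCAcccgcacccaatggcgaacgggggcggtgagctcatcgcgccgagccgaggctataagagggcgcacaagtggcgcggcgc

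Every member spot was well above background on every array, and none was saturated. Only the BATF3 spot on the DMSO array was marked by the scanner software as a background outlier. Over the series, 61.1% of the probes were well above background on the MET siRNA array and 67.4% to 68.2% on the other arrays, and the share of spots marked as outliers was 5.58% there and 1.69% to 2.21% elsewhere. MET itself (A_23_P359245, NM_000245) had a log2 ratio of -0.93 under PHA665752, -1.33 under MET siRNA and 0.032 between the controls. Among probes spotted 10 times, the SD between spots gave a log2 ratio an SD of 0.076 to 0.080, so a band of 1.96 SD was at most 0.157. How far cultures of 1 condition differ is not part of this band. Of the cell type markers, 6 of 6 epithelial genes were well above background on the DMSO array, with CDH1 at a signal of only 33.0, and 4 of 4 mesenchymal genes. Of the leukocyte genes, 3 of 4 were well above background, with CD79A at signals of 1501.8 to 1724.4, CD14 at 113.2 to 140.1 and PTPRC at 22.7 to 37.8, while CD3E was not well above background on any array. The endothelial marker PECAM1 had signals of 1846, 304, 1039 and 791 on the DMSO, PHA665752, sc siRNA and MET siRNA arrays, and the summed endothelial level ran from 370 to 1934. The summed epithelial level ran from 80935 to 131987, the mesenchymal from 244319 to 299790 and the leukocyte from 1652 to 1915. These sums kept marked spots, among them those of VIM on the sc siRNA and MET siRNA arrays. These markers were all read in RNA of the Hs746T cell line, and what they mean for the values below was not tested.

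FOSL1 was the only member that was lower with both treatments. Its probe (A_23_P161624, NM_005438) had processed signals of 8349 in DMSO, 703 under PHA665752, 6712 under sc siRNA and 4010 under MET siRNA. The PHA665752 array thus stood far below the others, the MET siRNA array came next, and the controls were the highest. The log2 ratio was -3.36 under PHA665752 and -0.79 under MET siRNA. Between the controls it was -0.062, within the band of spot noise. Ordered from the largest fall, FOSL1 ranked 38 of 14810 genes under PHA665752 and 190 of 13808 genes under MET siRNA. Over 9 other ways of processing, the ratio lay between -3.60 and -3.27 under PHA665752 and between -1.09 and -0.74 under MET siRNA. Among the FOS family, the difference between the controls was smaller in size than both treatment ratios for FOSL1 and FOSL2. For FOSL2 this did not hold when arrays were scaled to the median of their probes well above background. Its log2 ratio was then 0.093 under MET siRNA and 0.17 between the controls, and the median of all genes under MET siRNA moved by -0.30.

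FOS, whose protein c-FOS is the founding member of the family, had the opposite pattern. Its probe (A_23_P106194, NM_005252) had signals of 3704 in DMSO, 12443 under PHA665752, 1234 under sc siRNA and 1708 under MET siRNA. FOS was highest under PHA665752 and lowest under sc siRNA, and each step in the order of the 4 arrays was larger than the band of spot noise. The exception was the step from sc siRNA to MET siRNA when scaled to the median of probes well above background. It was then 0.12, within the band, while the median of all genes between these arrays moved by -0.30. The FOS log2 ratio was 1.96 under PHA665752 and 0.42 under MET siRNA, and sc siRNA over DMSO was -1.33. FOSB, a close relative with a long and a short splice form, followed FOS in every comparison. Its probe (A_23_P429998, NM_006732) had signals of 419, 1352, 111 and 156 on the DMSO, PHA665752, sc siRNA and MET siRNA arrays, and whether it reads both splice forms was not settled from the files. The FOSB log2 ratios were 1.905 under PHA665752, 0.44 under MET siRNA and -1.66 between the controls. For both genes the difference between the controls was more than 3 times the MET siRNA ratio on the log2 scale and of opposite sign. Counted from the largest fall between the controls, FOSB ranked 48 and FOS 79 of 14814 genes.

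The distance between FOS and FOSL1 does not depend on a scaling that shifts a whole array. The FOS log2 ratio exceeded that of FOSL1 by 5.32 under PHA665752 and by 1.21 under MET siRNA, while between the controls it was below it by a difference of -1.27. With quantile normalization the first of these was 5.45, and with normexp background correction it was 5.19. The other members with a value exceeded FOSL1 by 4.00 (JUN) to 5.26 (FOSB) under PHA665752, and by 0.91 (JUN) to 1.41 (JUND) under MET siRNA.

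**Figure D1:**
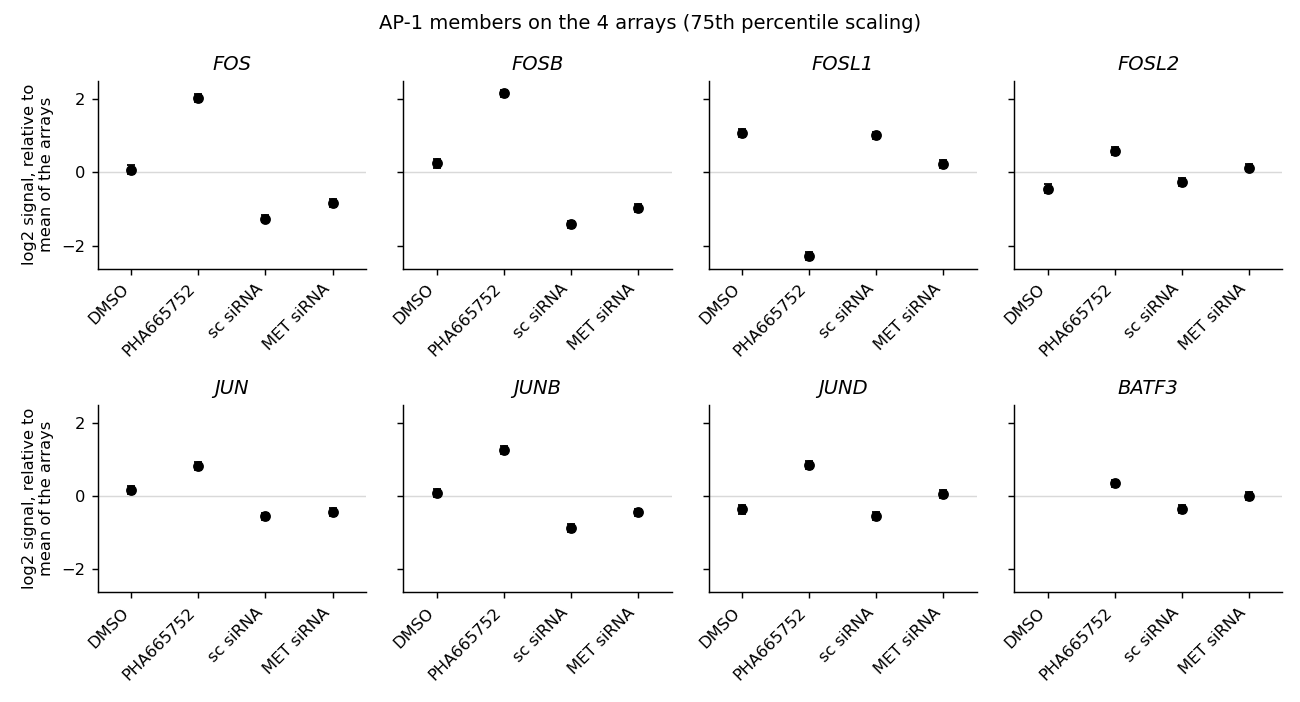
Each panel shows 1 member on the 4 arrays, as log2 signal after 75th percentile scaling minus the mean of that gene over its arrays. Bars are 1.96 SD of spot noise, and BATF3 has no usable DMSO spot. FOSL1 is lowest and FOS and FOSB are highest under PHA665752.

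FOSL2, which encodes FRA-2, differed from FOSL1 in direction. Its probe (A_23_P348121, NM_005253) had signals of 306 in DMSO, 536 under PHA665752, 290 under sc siRNA and 394 under MET siRNA. Both treatments lay above both controls. The log2 ratios were 1.02 under PHA665752, 0.39 under MET siRNA and 0.18 between the controls. The PHA665752 ratio was at the 2-fold mark and fell short of it in 4 of the 9 other ways of processing, down to 0.78.

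Of the JUN family, JUNB and JUND passed 2-fold under PHA665752 and JUN did not. JUN encodes c-JUN, the strongest activator among the JUN proteins, and its probe (A_33_P3323298, NM_002228) had signals of 9262 in DMSO, 12514 under PHA665752, 4700 under sc siRNA and 5294 under MET siRNA. The transfected cultures were thus the lowest, whichever siRNA they received. The JUN log2 ratio was 0.65 under PHA665752 and -0.73 between the controls. With MET siRNA it was 0.12, within the band of spot noise, and it turned to -0.18 when arrays were scaled to the median of their probes well above background. The median of all genes in the MET siRNA pair moved by -0.30 with that scaling. JUNB, a weaker activator that can oppose c-JUN, had signals of 215, 414, 92.6 and 129 on the DMSO, PHA665752, sc siRNA and MET siRNA arrays (A_24_P241815, NM_002229). Its log2 ratios were 1.16 under PHA665752, 0.43 under MET siRNA and -0.96 between the controls, and the first fell to 0.92 with the 50th percentile and to 0.97 with normexp. JUND is the JUN gene known for steady expression in resting cells. Its probe (A_33_P3324909, NM_005354) had signals of 481 in DMSO, 966 under PHA665752, 355 under sc siRNA and 562 under MET siRNA, so that both treatments lay above both controls. JUND had the largest MET siRNA ratio of the members, with a log2 ratio of 0.62, while it was 1.22 under PHA665752 and -0.19 between the controls.

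BATF3, which pairs with JUN proteins and is known for its role in dendritic cells, had signals of 1252 under PHA665752, 754 under sc siRNA and 1000 under MET siRNA (A_23_P160720, NM_018664). The DMSO spot read 1030 but was left out because of its mark, so BATF3 had no ratio under PHA665752 or between the controls. With MET siRNA its log2 ratio was 0.36. When background marks were ignored, the ratio was 0.49 under PHA665752 and -0.19 between the controls.

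Of the 7 members with a PHA665752 ratio, 5 were higher and 1 was lower by more than 2-fold. Among all genes with a ratio in this pair, 13.1% were higher and 7.95% lower by as much. With the 50th percentile scaling, which moved the median of all genes by -0.25 in this pair, only FOS and FOSB stayed past 2-fold on the higher side and FOSL1 on the lower. With MET siRNA, 0 of 8 members passed 2-fold in either direction, against 2.04% of all genes higher and 0.702% lower. The median log2 ratio of the members was 0.41 there and -0.017 over all genes. Between the controls, 2 of 7 members, FOS and FOSB, were lower past 2-fold and 0 were higher, against 1.15% and 2.84% of all genes. The control comparison shares an array with each of the other comparisons. The labels name no transfection for the DMSO cells, so transfection and any other difference between these cultures cannot be told apart.

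**Figure D2:**
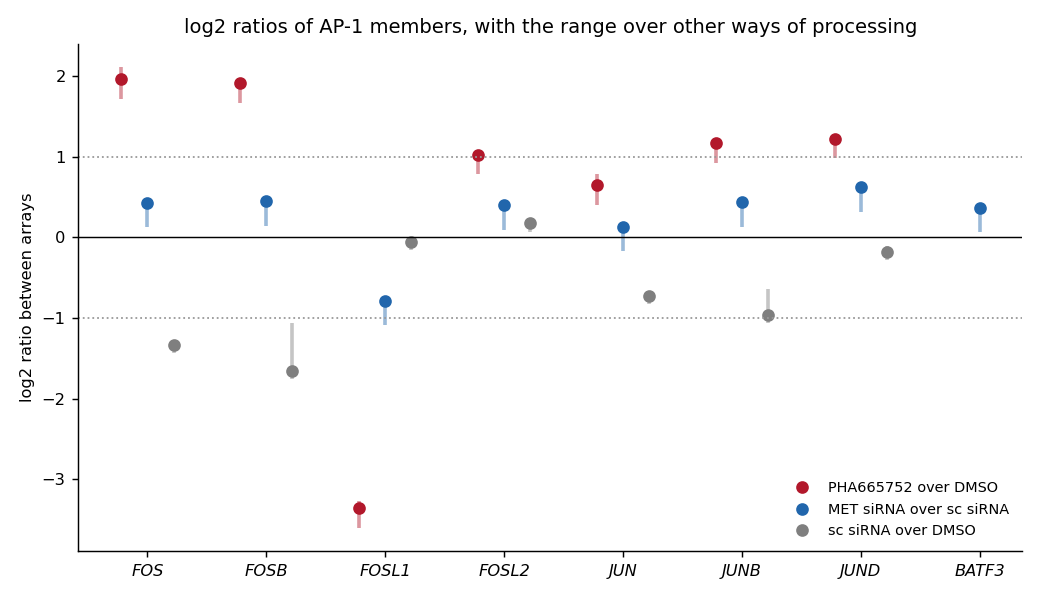
Points are the log2 ratios of the members for PHA665752 over DMSO (red), MET siRNA over sc siRNA (blue) and sc siRNA over DMSO (gray), and lines are the range over other ways of processing. Dotted lines mark 2-fold. FOSL1 stands at -3.36 under PHA665752, and FOS and FOSB are above 1.9 there and below -1 between the controls.

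For the 6 members past 2-fold under PHA665752, the most similar genes were found by the distance over the 3 log2 ratios, among 13074 genes well above background on all arrays. FOS and FOSB were each other's nearest gene, at a distance of 0.33, with ARL3 and PAQR6 next for FOS at 0.58 and 0.61 and ARL3 and STON1 next for FOSB at 0.77 and 0.79. For FOSL1 the nearest were G0S2, IVL and ETV5, at 0.12, 0.24 and 0.25. IVL encodes involucrin, a differentiation protein of stratified epithelium, and ETV5 is an ETS factor known as an output of ERK signaling. The IVL signal was only 20.7 under PHA665752. With normexp its PHA665752 log2 ratio was -1.82, beside -3.27 for FOSL1, so this likeness depends on the processing. For JUNB the nearest were REEP2, TRPM8 and TLE2, at 0.27, 0.27 and 0.31. For JUND they were PAN2, MAST1 and HMG20B, at 0.057, 0.077 and 0.081, and for FOSL2 they were ATF6B, CIMAP3 and PXDC1, at 0.029, 0.058 and 0.076. These are likenesses over 4 arrays.

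Of 16 upstream kinases and factors that act on FOS and JUN genes or proteins, 0 were higher and 2 lower past the 2-fold mark under PHA665752, against 13.1% and 7.95% of all genes, at a median log2 ratio of -0.12 beside 0.076 over all genes. The largest fall was that of ELK3, a ternary complex factor that represses FOS together with serum response factor, with signals of 1892, 559, 1559 and 992 on the DMSO, PHA665752, sc siRNA and MET siRNA arrays. The ELK3 log2 ratio was -1.55 under PHA665752 and -0.70 under MET siRNA, beside -0.027 between the controls. The other was MAP2K1, which encodes the ERK kinase MEK1, at -1.29 and -0.44. The largest rise was that of MAPK3, the gene of ERK1, with a log2 ratio of 0.92 and 0.19.

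Among 12 related bZIP factors, 9 had a PHA665752 ratio, of which 3 were higher and 1 lower past 2-fold, against 13.1% and 7.95% of all genes. Over the other ways of processing, the count of higher genes lay between 1, with normexp, and 3. ATF3, a stress-induced partner of JUN proteins, was past 2-fold higher with both treatments. Its signals were 1614 in DMSO, 16993.6 under PHA665752, 3008 under sc siRNA and 9882 under MET siRNA, and its log2 ratios were 3.61, 1.67 and, between the controls, 1.15. MAFF, a small MAF protein without an activation domain, had the largest fall, with log2 ratios of -1.72 under PHA665752 and -0.44 under MET siRNA. MAF, a large MAF protein with an activation domain, was also past 2-fold higher under PHA665752, at 1.41. Its signals were only 31.0 in DMSO and 70.9 under PHA665752, and the ratio fell to 0.72 in 1 other way of processing.

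Of 13 other immediate early genes with a PHA665752 ratio, 9 were above 0 and 4 below, and their median log2 ratio was 0.78. Past 2-fold, 6 were higher and 0 lower, against 13.1% and 7.95% of all genes. EGR1, the zinc finger factor induced together with FOS by serum, was the highest, with signals of 617 in DMSO and 4094 under PHA665752 and a log2 ratio of 2.95. ZFP36, whose protein degrades AU-rich mRNAs, followed at 2.34. EGR2, NR4A2, DUSP1 and CCN1 had ratios between 1.04 and 1.24, and with the 50th percentile only EGR1 and ZFP36 stayed past 2-fold. The lowest gene was CCN2, at -0.81. With MET siRNA, 0 of 12 passed 2-fold, against 2.04% of all genes higher and 0.702% lower. NR4A2 was close to the mark, at a log2 ratio of 0.998. The count of higher genes was 1 when background marks were ignored and with the series matrix. EGR1 had a log2 ratio of 0.085 in this pair. Unlike FOS, EGR1 was higher in sc siRNA than in DMSO cells, with a log2 ratio of 0.84.

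**Figure D3:**
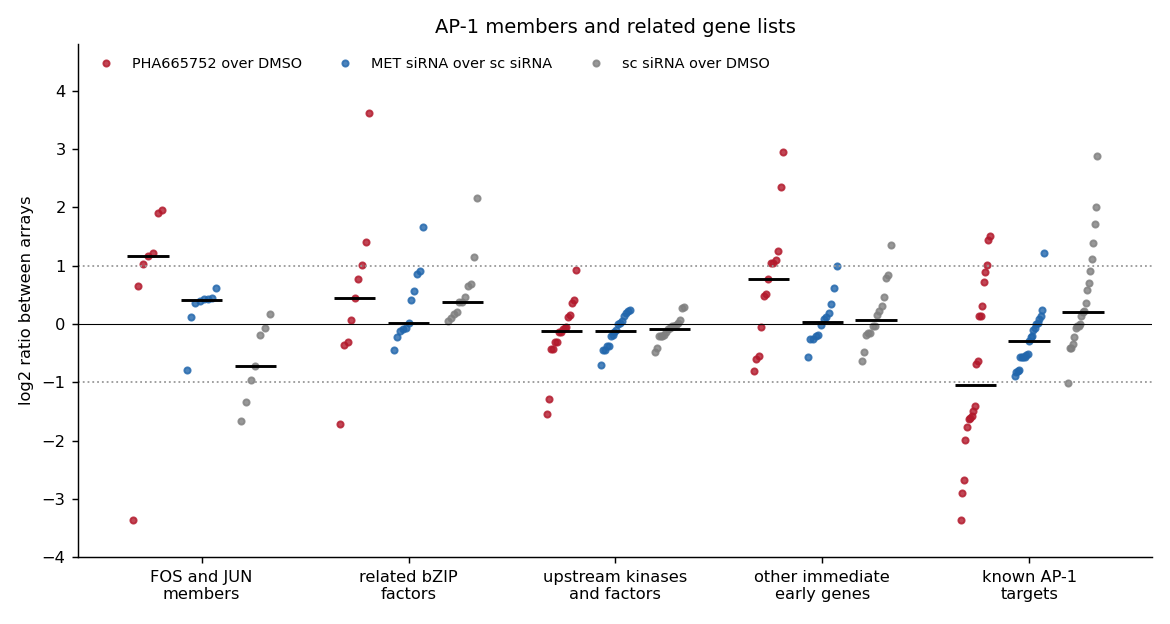
Each point is the log2 ratio of 1 gene in the pair of arrays given by its color, black bars are list medians and dotted lines mark 2-fold. With PHA665752 the members and other immediate early genes have medians of 1.16 and 0.78 and the known AP-1 targets a median of -1.04.

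Of 20 genes known as AP-1 targets with a PHA665752 ratio, 12 were below 0. Past 2-fold, 10 were lower and 3 higher, against 7.95% and 13.1% of all genes. Their median log2 ratio was -1.04, beside 0.076 over all genes. The median was -0.47 with normexp and between -1.29 and -0.68 in the other ways of processing, while the count of lower genes stayed at 9 or 10. IVL had the largest fall, with signals of 245 in DMSO and 20.7 under PHA665752 and a log2 ratio of -3.35. It was -1.82 with normexp. The matrix metalloproteinase genes MMP1, a collagenase, and MMP10, a stromelysin, were at -2.90 and -2.67. The urokinase gene PLAU and its receptor PLAUR were at -1.77 and -1.41. SPP1, CCND1, HMGA1, CXCL8 and IL11 lay between -1.99 and -1.48, and CXCL8, which had a signal of only 16.6 under PHA665752, was at -0.31 with normexp. These were named after their values were seen.

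With MET siRNA, 15 of 21 of these genes had a ratio below 0, at a median of -0.28. Past 2-fold, 0 were lower, against 0.702% of all genes. When arrays were scaled to the median of their probes well above background, which moved the median of all genes by -0.30 in this pair, 4 were lower past 2-fold. MMP1 signals were 32567.8 in DMSO, 3766.2 under PHA665752, 59419.3 under sc siRNA and 35114.5 under MET siRNA, and its MET siRNA ratio was -0.81. The MMP1 signal under MET siRNA was thus below that of its own control and above that of DMSO. IL6, an inflammatory cytokine, was past 2-fold higher with both treatments, at 1.44 and 1.22, on signals of 23.2, 54.2, 143.7 and 346.9 listed from DMSO through PHA665752 and sc siRNA to MET siRNA. The first IL6 ratio was 0.62 with normexp, and the second fell to 0.92 when arrays were scaled to the median of their probes well above background. HMOX1, the heme-degrading enzyme of the oxidative stress response, had the largest rise under PHA665752, at 1.50. The list is taken from general knowledge and was not chosen for binding of AP-1 in these cells. It was drawn up with earlier results of these data known, so its counts and median are not independent of them.

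**Figure D4:**
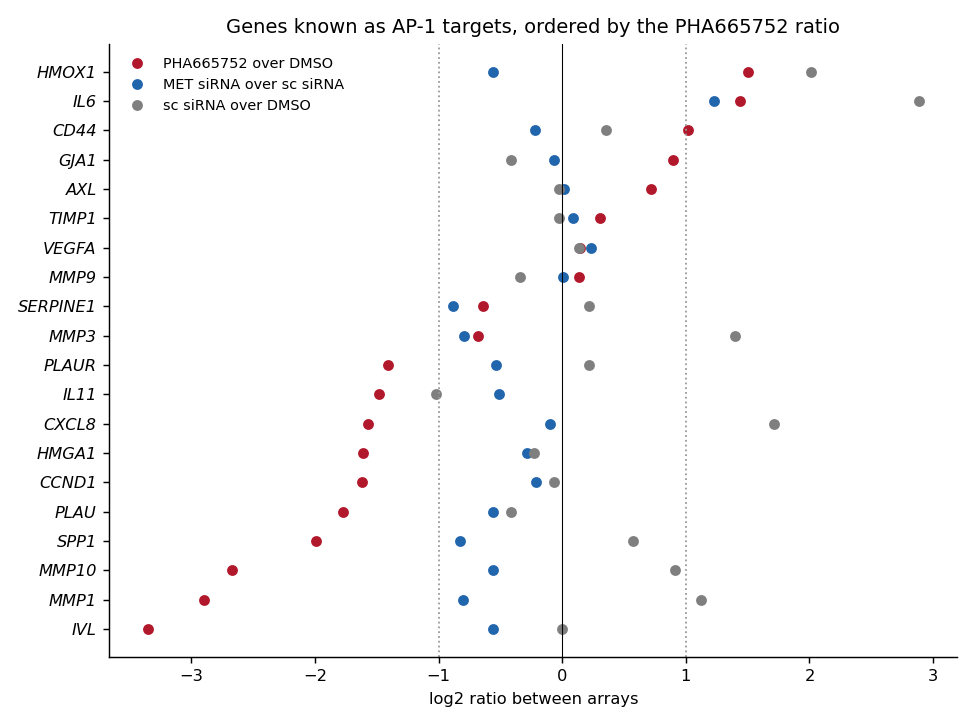
Points are log2 ratios of 20 genes known as AP-1 targets for PHA665752 over DMSO (red), MET siRNA over sc siRNA (blue) and sc siRNA over DMSO (gray), ordered by the red point, with dotted lines at 2-fold. Red points run from -3.35 (IVL) to 1.50 (HMOX1), with 10 of them below -1 and 3 above 1.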

How the data were processed

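Total RNA of Hs746T cells was hybridized to 4 Agilent human V2 arrays. Per the file headers, Feature Extraction 11.5.1.1 read the arrays. Its processed signal, as the authors deposited it, is a linear intensity per spot from which background was subtracted and spatial trends were removed, and arrays were not normalized to each other. The marks for outlier spots and spots well above background come from the same deposited files. The series matrix holds the same intensities to 1 decimal and was used only as an alternative. Control spots were dropped, as was any spot with an outlier mark for its feature or its background. The summed marker levels are the exception, because they kept spots with a background mark. After log2 transformation, repeat spots were averaged and each array was centered on its 75th percentile.

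Of 34127 probes, 25771 (75.5%) were named through RefSeq accessions of GRCh38.p14, used for names and promoter sequences, the array design itself having been annotated on another build. A gene was represented by its probe with the highest mean. Where just 1 array of a pair had the probe well above background, a bound was taken, none of which is printed here. Genes named from the lists were those past 2-fold in 1 direction with both treatments and the largest rise and fall under PHA665752 in each list, while the other genes were picked with their values in view. The members and lists were chosen with earlier results of these data known. One gene of the related lists is counted but not reported here by name. The number of arrays limits the precision. The ratio rule was tested on simulated data. Alternatives were the 50th percentile, the median of probes well above background, quantile normalization, normexp with an offset of 50 on the median spot signal, no filter on dim probes, a filter for signal well above background on each array of a pair, background marks ignored, the median over probes of a gene, and the series matrix. Python 3.11.15, pandas 2.3.3, R 4.3.3 and limma 3.58.1 were used.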

Additional observations from a re-analysis of the deposited data

Results flagged for a closer look

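In 4 genes of the related lists that were past 2-fold in at least 1 pair of arrays, the log2 ratio was above 0 under PHA665752 and below 0 under MET siRNA, and the difference between the treatments was not tested. HMOX1 stood at 1.50 under PHA665752 and -0.56 under MET siRNA. CD44, the hyaluronan receptor, stood at 1.02 and -0.22. DUSP1, a MAP kinase phosphatase, stood at 1.05 and -0.20. EGR2 stood at 1.24 and -0.0125, the latter within spot noise. No member of the FOS and JUN family with both ratios had opposite signs, except that JUN turned to -0.18 under MET siRNA when arrays were scaled to the median of their probes well above background. That scaling moved the median of all genes in the MET siRNA pair by -0.30.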

How the results depend on the processing

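No paired analysis was possible because each condition had 1 array, and no array could be left out. The count of members past 2-fold higher under PHA665752 was 5, but 2 with the 50th percentile and 3 with normexp. The count lower under MET siRNA was 0, but 1 when arrays were scaled to the median of their probes well above background, where FOSL1 reached -1.09. That scaling moved the median of all genes in the MET siRNA pair by -0.30. The 51 other counts of members under an alternative were within 1.5 times the value reported. No ratio past 2-fold changed sign under these alternatives. Quantile normalization, the filters on dim probes, the probe median and the series matrix moved no member count by more than 1.5 times. Between the controls, the FOSB ratio was -1.07 with normexp. Spot noise is the only error known here.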

Other observations

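Several related genes differed more between the controls than under MET siRNA, and were named after their values were seen. BATF2, an interferon-induced bZIP factor, had signals of 2373 in DMSO, 1655 under PHA665752, 8886 under sc siRNA and 8641 under MET siRNA. Both transfected cultures were thus high, with a log2 ratio of 2.16 for sc siRNA over DMSO and -0.087 for MET siRNA over sc siRNA. Among the known AP-1 targets, 5 of 21 were higher past 2-fold in sc siRNA than in DMSO cells, against 2.84% of all genes. Their log2 ratios were 2.89 for IL6 (1.51 with normexp), 2.01 for HMOX1, 1.71 for CXCL8, 1.395 for MMP3 and 1.12 for MMP1. FOS and FOSB were lower in this pair. IL11 was the 1 target lower past 2-fold, at -1.02, against 1.15% of all genes.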
